A study of Saccharomyces cerevisiae with 6 samples.

Results

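The mRNAs of 39 cytosolic translation factor genes of the yeast Saccharomyces cerevisiae were measured in a PHO80 deletion strain and in wild type during xylose fermentation. The genes were taken from a list of named factors and matched to the array by locus tag, and all 39 were found among the 6256 genes with a probe. They comprise 26 initiation, 11 elongation and 2 termination factor genes. Both strains were of the BY4741 background and were sampled after 6 h in medium with 80 g/l xylose. The first group carried the genotype PHO80 deletion and the second was labelled wild-type, with 3 arrays each. Pho80 is the cyclin of the Pho85 kinase, which in phosphate-rich medium keeps Pho4, the activator of the phosphate response, in the cytoplasm. The comparison asked how expression in the PHO80 deletion strain differed from wild type in this fermentation.

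In initiation, eIF2 brings the initiator tRNA to the small ribosomal subunit, eIF1, eIF1A, eIF3 and eIF5 help it scan for the start codon, the eIF4 factors prepare the capped mRNA, and eIF2B reloads eIF2 with GTP. In elongation, eEF1A delivers aminoacyl-tRNAs, eEF1B recharges eEF1A, eEF2 moves the ribosome along, eEF3 is an ATPase found in fungi, and eIF5A helps the ribosome through difficult peptide bonds. In termination, eRF1 reads the stop codon and eRF3 is its GTPase partner. Many of these factors are abundant in growing yeast, and several are encoded by a pair of duplicated genes.

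Each array was hybridised in 1 colour and carried 7 spots per gene. The 75th percentile of the processed signal was 2404 to 5011 on the deletion arrays and 2493 to 2862 on the wild-type arrays, and no spot was saturated. Levels below are log2 signals relative to that percentile. Within a strain, arrays 1 and 3 lay closer together than repeated spots do (median squared difference over spot variance 0.412 in the deletion strain and 0.435 in wild type, where spot noise gives 0.484), differing by less than the sampling noise, and they were averaged and counted once, so each strain had 2 samples. Deletion array 2 stood apart from its companions (88.6 and 94.8), and wild-type array 2 stood slightly above that noise (0.634 and 0.669). Separate cultures are not named for the arrays, so the errors and p-values measure only the spread between these samples, which may be technical. Each strain was on a slide of its own with its own scan, and the effect of slide or scan cannot be told apart from that of strain. PHO80 itself was well above background on 0 of 3 deletion arrays (levels of -9.41, -9.85 and -9.96) and read -2.93, -2.83 and -2.86 in wild type, so that its level in the deletion strain was at least 27.4-fold lower. Such bounds take the lowest signal well above background on an array in place of a dimmer signal. The limma adjusted p of PHO80 (0.00153) belongs to the fit of its measured signals and not to the bound. Genes of the mitochondrial genome, singled out after their values were seen, also went with strain. Of 13 named genes tested, 12 were lower in the deletion strain and for 10 of them no deletion array was well above background, with COB, the cytochrome b gene, at least 4635-fold lower. Their part in the results below was not tested. The arrays measure each mRNA relative to the rest of its sample, so a change of total mRNA per cell would not be seen.

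All 39 translation factor genes were well above background on all 6 arrays. By limma at an adjusted p under 0.05 over all 5863 tested genes, 16 of the 39 were lower in the deletion strain, 1 was higher and 22 did not pass. At an unadjusted p under 0.05 the counts were 18 and 2. Among all tested genes 34.6% were called lower and 19.2% higher (53.8% in either direction), beside 41.0% and 2.56% of the factor genes. These shares moved with the scaling. With each array centred on its median, 28.2% of the factor genes were lower, against 25.8% of all tested genes, and with quantile normalization 46.2% were lower, against 24.6%. The factor genes called higher were 7.69% under both scalings, against 26.3% of all tested genes with median centring and 27.5% with quantile normalization. The median log2 fold change of the 39 genes was -0.68, against -0.28 for all tested genes. By function it was -0.70 for the initiation genes, -0.43 for the elongation genes and -1.10 for the termination genes. Of these, 10 of 26, 5 of 11 and 1 of 2 were called lower, and 1 elongation gene was called higher. The median of all genes was 0.01 with each array centred on its median and 0.03 with quantile normalization, and the median of the 39 genes relative to all genes was -0.40, -0.40 and -0.62 under the 3 scalings. The 10 genes called lower by at least 2-fold were ANB1, RPG1, TIF11, NIP1, HYP2, PRT1, CAF20, CDC33, SUP35 and EFT2, while 24.1% of all tested genes were so called. On 28 of the 39 genes the 3 deletion arrays all lay below the 3 wild-type arrays, on 5 they all lay above, and on 6 the strains overlapped. Over all genes 50.9% lay wholly below and 31.1% wholly above, 82.0% in all. Cytosolic ribosomal protein genes, picked by their symbols, had a median log2 fold change of -2.02 over 138 genes, and the difference between that list and the factor genes was not tested.

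The count of lower factor genes depended on array 2 of each strain. It fell without wild-type array 2 and rose without deletion array 2, and so did the count of higher factor genes. The counts over all tested genes moved in the same directions, and without deletion array 2 most tested genes passed. In each case 1 sample of that strain is left and is assumed to vary like the other strain. The spread then comes from the deletion arrays alone when wild-type array 2 is left out, and from the wild-type arrays alone, which lay near spot noise, when deletion array 2 is left out. The fitted changes of the 8 factor genes that lost their call without wild-type array 2 moved by at most 0.044. Of the 17 called genes, 9 were called under all 18 alternatives tried. These were TIF11, RPG1, PRT1, NIP1, CDC33, CAF20, HYP2, ANB1 and SUP35.

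**Figure D1:**
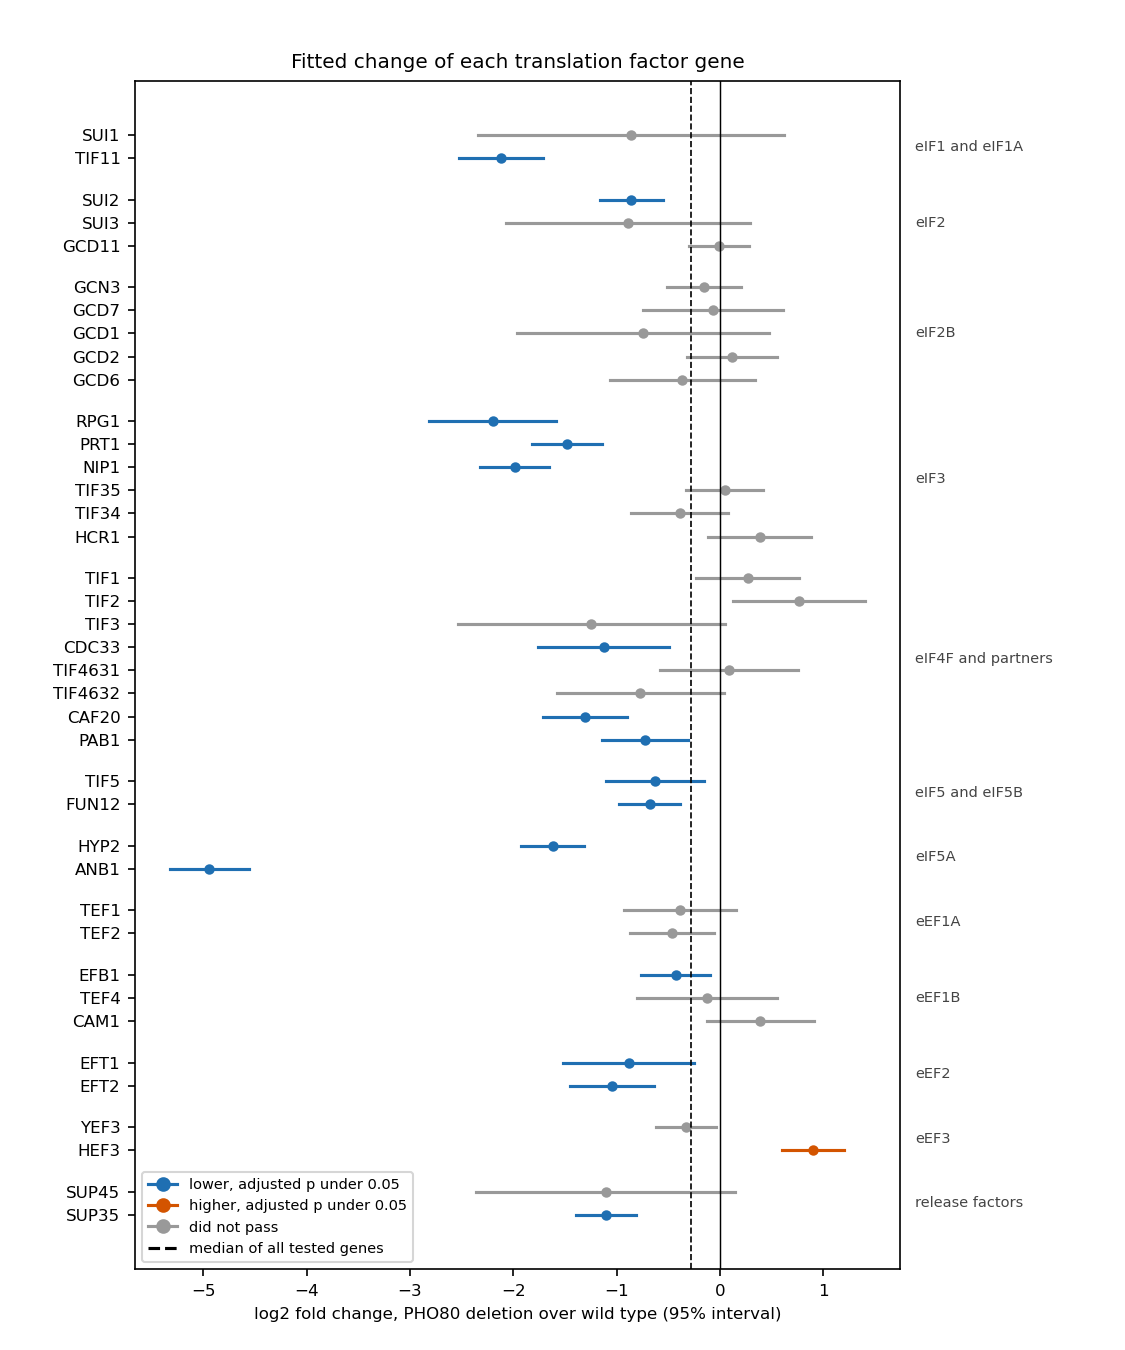
Fitted log2 fold change (PHO80 deletion over wild type) of the 39 translation factor genes, grouped by complex, with 95% intervals from limma on 2 samples per strain. Blue genes were lower, the orange gene was higher, grey genes did not pass, and the dashed line marks the median of all tested genes at -0.28. ANB1 lies far from the rest at -4.94, and HEF3 is the only gene called higher.

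Of the genes for the small factors that open the small subunit for scanning, that of eIF1A was called lower and that of eIF1 did not pass. TIF11, which encodes eIF1A, had levels of 0.36, 0.07 and 0.35 on the deletion arrays, against 2.33, 2.34 and 2.31 on the wild-type arrays. The strains were far apart on every array, and TIF11 fell 4.34-fold (log2 fold change -2.12 ± 0.15, SE, n = 2 samples per strain; adjusted p = 0.00306, limma). SUI1, which encodes eIF1, read 2.17, 0.66 and 2.07 in the deletion strain, against 2.23, 2.27 and 2.25 in wild type. Deletion array 2 alone was clearly low, and arrays 1 and 3 lay just under wild type. Its change of -0.86 ± 0.53 did not pass (adjusted p = 0.236) and was -0.13 without deletion array 2.

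The subunits of eIF2 did not change alike. SUI2, the alpha subunit that carries the regulatory phosphorylation site, read -1.69, -1.78 and -1.83 in the deletion strain, against -0.90, -0.93 and -0.89 in wild type. It fell with no overlap between the strains (-0.86 ± 0.11, adjusted p = 0.00697), and the call was lost without wild-type array 2 (-0.87, adjusted p = 0.161). GCD11, the gamma subunit that binds GTP and the initiator tRNA, read -0.63, -0.60 and -0.62 in the deletion strain, against -0.60, -0.62 and -0.57 in wild type. The arrays overlapped, and the 95% interval of its change ran from -0.30 to 0.28. SUI3, the beta subunit, had levels of -0.43, -1.56 and -0.41 in the deletion strain, against -0.17, -0.08 and -0.07 in wild type. As for SUI1, deletion array 2 was much lower than its companions, and the change of -0.89 ± 0.42 did not pass (adjusted p = 0.148; -0.32 without deletion array 2).

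None of the 5 subunit genes of eIF2B, the exchange factor of eIF2, was called in either direction by limma, where 53.8% of all tested genes were. At an unadjusted p under 0.05 the count was also 0. Their fitted changes ran from -0.74 for GCD1 to 0.12 for GCD2, with GCN3 at -0.15, GCD7 at -0.07 and GCD6 at -0.36. GCD1, the gamma subunit of the catalytic part, read -0.83, -2.01 and -0.82 in the deletion strain, against -0.65, -0.69 and -0.66 in wild type. Its low value came from deletion array 2, and the change was -0.15 without it. GCD2, the delta subunit of the regulatory part, read -0.77, -1.07 and -0.74 in the deletion strain, against -1.06, -1.02 and -1.04 in wild type, and the arrays overlapped. The 95% intervals of GCN3 (-0.51 to 0.20), GCD7 (-0.74 to 0.61) and GCD2 (-0.32 to 0.55) did not reach a change of 2-fold. These intervals do not cover the choice of scaling. The intervals of GCD1 (-1.96 to 0.47) and GCD6 (-1.06 to 0.34) reached beyond a 2-fold fall, so a fall of that size was not excluded for them. Without deletion array 2 the changes of GCN3, GCD1, GCD6, GCD7 and GCD2 were -0.25, -0.15, -0.04, 0.22 and 0.28. GCD7 was called higher with quantile normalization (0.82, adjusted p = 0.0171).

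The eIF3 genes divided into 3 that fell and 3 that did not pass. eIF3 is the large scaffold that joins the small subunit to the mRNA-binding factors, and RPG1, PRT1 and NIP1 encode its largest subunits, eIF3a, eIF3b and eIF3c. RPG1 read -5.08, -5.56 and -5.13 on the deletion arrays, against -3.24, -3.05 and -3.21 on the wild-type arrays. It fell 4.59-fold (-2.20 ± 0.22, adjusted p = 0.00473), with a smaller fitted fall of -1.30 under quantile normalization (adjusted p = 0.00839). NIP1 read -3.78, -3.80 and -3.71 in the deletion strain, against -1.76, -1.78 and -1.81 in wild type, and PRT1 read -1.21, -1.40 and -1.22 in the deletion strain, against 0.16, 0.18 and 0.17. On each of these genes the strains were separated by more than the spread within either, and both fell, NIP1 by 3.96-fold and PRT1 by 2.79-fold (adjusted p = 0.00265 and 0.00349). With quantile normalization NIP1 had a fitted change of -1.32.

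The small eIF3 subunits gave other values. TIF35 (eIF3g) read 0.73, 0.95 and 0.71 in the deletion strain, against 0.84, 0.77 and 0.78 in wild type, and the arrays overlapped. TIF34 (eIF3i) was lower on every deletion array but its change of -0.39 ± 0.17 did not pass (adjusted p = 0.119). HCR1 (eIF3j), a loosely bound subunit, read -1.96, -2.31 and -1.90 in the deletion strain, against -2.56, -2.47 and -2.52 in wild type. Its change of 0.39 ± 0.18 did not pass (adjusted p = 0.141), whereas it was called higher with median centring (0.68, adjusted p = 0.0272) and with quantile normalization (0.97, adjusted p = 0.00727). The upper 95% bounds of RPG1, PRT1 and NIP1 (-1.58, -1.14 and -1.65) lay below the lower bounds of TIF35, TIF34 and HCR1 (-0.32, -0.86 and -0.11). These sets were formed from the same values, so the gap between their intervals is no separate test of a division. The intervals do not cover the choice of scaling. With quantile normalization RPG1 and NIP1 had -1.30 and -1.32, above their upper bounds. Without deletion array 2, TIF35, TIF34 and HCR1 had changes of -0.07, -0.57 and 0.58.

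The gene for cap recognition fell, and those for the helicase eIF4A did not pass. CDC33, which encodes the cap-binding protein eIF4E, read 0.03, -0.54 and 0.02 in the deletion strain, against 0.84, 0.87 and 0.87 in wild type, and fell 2.18-fold (-1.12 ± 0.23, adjusted p = 0.0203). CAF20, whose product binds eIF4E and keeps eIF4G from it, read -1.36, -1.09 and -1.39 in the deletion strain, against 0.04, 0.10 and 0.06 in wild type. It fell 2.48-fold (-1.31 ± 0.15, adjusted p = 0.00563). PAB1, the poly(A)-binding protein gene, fell by less (-0.73 ± 0.15, adjusted p = 0.0212). The PAB1 call was lost without wild-type array 2 (adjusted p = 0.214) and with median centring (-0.43, adjusted p = 0.0572).

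TIF1 and TIF2, which encode the same eIF4A protein, were higher on every deletion array without passing. TIF2 had the largest upward change of the 26 initiation genes, with 3.19, 3.74 and 3.18 in the deletion strain, against 2.74, 2.69 and 2.66 in wild type. No array of one strain reached the other, and the change was 0.77 ± 0.23 with an adjusted p = 0.053. TIF2 was called higher in 9 of 18 alternatives, among them median centring (1.06, adjusted p = 0.0356) and the leaving out of wild-type array 1 (0.79, adjusted p = 0.0495). TIF1 read 2.52, 2.93 and 2.56 in the deletion strain, against 2.48, 2.45 and 2.46 in wild type, a change of 0.27 ± 0.18, or 0.07 without deletion array 2. TIF3, which encodes eIF4B, a helper of eIF4A, read -0.05, -1.30 and -0.03 in the deletion strain, against 0.61, 0.57 and 0.56 in wild type. Although every deletion array was below wild type, array 2 was much lower than arrays 1 and 3, and the change of -1.24 ± 0.46 did not pass (adjusted p = 0.0894). It was -0.61 without deletion array 2, and it was called lower without wild-type array 2 (-1.25, adjusted p = 0.0235).

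The eIF4G genes encode the scaffold that ties eIF4E, eIF4A and Pab1 together. TIF4631 read -0.50, 0.11 and -0.50 in the deletion strain, against -0.26, -0.29 and -0.28 in wild type, so that deletion array 2 lay above wild type and arrays 1 and 3 below it. TIF4632 read -3.80, -3.11 and -3.87 in the deletion strain, against -2.74, -2.66 and -2.75 in wild type, lower on every deletion array (-0.77 ± 0.29, adjusted p = 0.0907). Without deletion array 2 the changes of these genes were -0.22 and -1.13.

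Both late initiation factors fell modestly. FUN12, which encodes the subunit-joining GTPase eIF5B, read -0.90, -0.99 and -0.94 in the deletion strain, against -0.28, -0.27 and -0.28 in wild type (-0.68 ± 0.11, adjusted p = 0.0112). TIF5, which encodes eIF5, the activator of GTP hydrolysis by eIF2, read -3.85, -4.17 and -3.91 in the deletion strain, against -3.42, -3.36 and -3.47 in wild type (-0.62 ± 0.17, adjusted p = 0.0426). The arrays of the strains did not overlap on either gene. Both calls were lost with median centring, where FUN12 had -0.39 (adjusted p = 0.0522) and TIF5 -0.33 (adjusted p = 0.143), and without wild-type array 2 (adjusted p = 0.275 and 0.455). TIF5 was also lost without deletion array 3 (adjusted p = 0.05), and with quantile normalization it had the opposite sign (0.28, adjusted p = 0.126).

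**Figure D2:**
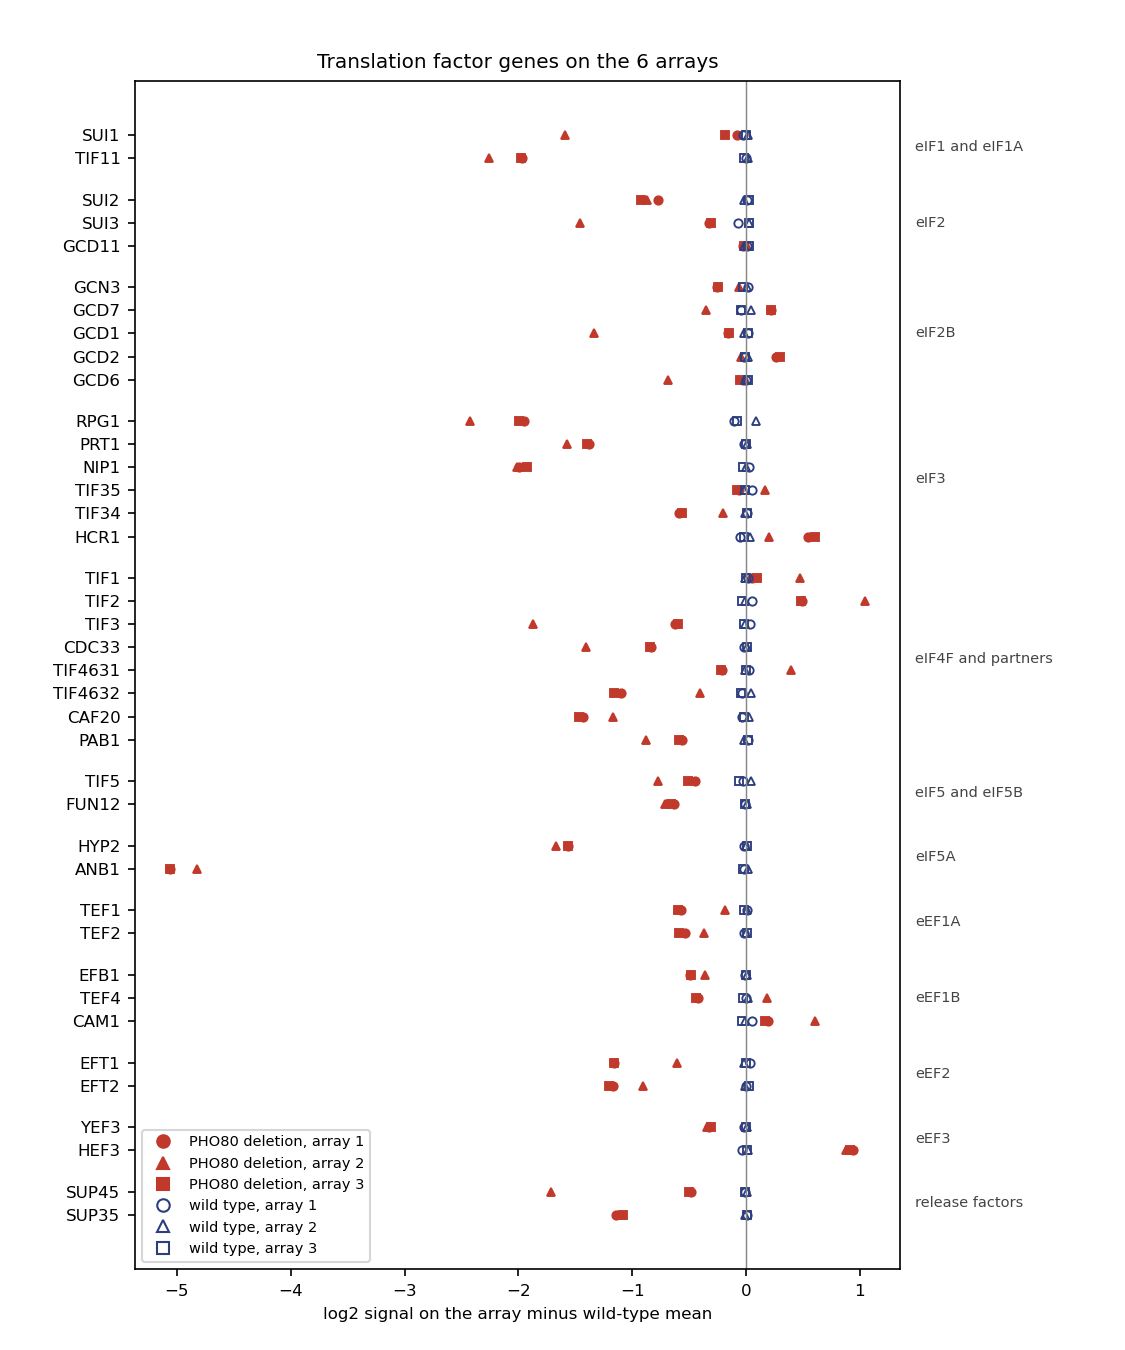
Log2 signal of each of the 39 genes on each array minus the gene's wild-type mean, for the 3 PHO80 deletion arrays (filled red) and the 3 wild-type arrays (open blue). The wild-type arrays lie close to 0, deletion arrays 1 and 3 lie on top of each other, and deletion array 2 departs from them for SUI1, SUI3, GCD1, TIF3 and SUP45.

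Among the elongation factors the largest difference was in eIF5A, the factor that carries the modified amino acid hypusine. It is encoded by HYP2, the form made in aerobic cells, and ANB1, the form made when oxygen or heme is short. ANB1 read -3.58, -3.33 and -3.57 on the deletion arrays, against 1.47, 1.51 and 1.46 on the wild-type arrays. In unscaled processed signal these were 282, 238 and 422 in the deletion strain, against 7684, 8149 and 6867 in wild type. ANB1 fell 30.7-fold (-4.94 ± 0.14, adjusted p = 0.00153), and only 17 of the 5863 tested genes had a lower fitted change. Its change ranged from -5.06 to -4.62 over all alternatives. HYP2 read 0.71, 0.61 and 0.71 in the deletion strain, against 2.27, 2.28 and 2.29 in wild type, and fell 3.07-fold (-1.62 ± 0.11, adjusted p = 0.00297).

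The other hypoxic isoform genes examined gave other values than ANB1. Hypoxic genes outside these isoform pairs were not examined, so the list does not show whether the fall was particular to ANB1. Of the 4 listed, CYC7 (cytochrome c), COX5B (cytochrome c oxidase) and AAC3 (ADP/ATP carrier) rose by 0.95 ± 0.15, 0.88 ± 0.15 and 0.47 ± 0.14 (adjusted p = 0.0121, 0.014 and 0.0496), and HMG2 (sterol synthesis) had a change of -0.56 that did not pass. With quantile normalization CYC7 had 0.67 (adjusted p = 0.0706). CYC7, COX5B and AAC3 were named after their values were seen, and all 3 lost their call without wild-type array 2 (adjusted p = 0.254, 0.269 and 0.554). AAC3 also did so without wild-type array 3 or deletion array 3 (adjusted p = 0.0529 and 0.0526). Of their aerobic partners, PET9 (-0.97 ± 0.12), COX5A (-1.18 ± 0.18) and HMG1 (-1.21 ± 0.31) fell and CYC1 rose (1.69 ± 0.14). HMG1, named after its values were seen, was not called with median centring (-0.92, adjusted p = 0.0882) or with quantile normalization (-0.99, adjusted p = 0.0576). CYC1 is also the gene next to ANB1 in the RefSeq annotation, and TAH11 on the other side, named for its position, rose too (2.23 ± 0.14, adjusted p = 0.00265). Leaving out wild-type array 2 ended the PET9 call (adjusted p = 0.0761). Of the regulators in the list, ROX1, which encodes the repressor of hypoxic genes, had a change of 0.46 ± 0.25 (adjusted p = 0.197). MOT3 fell (-1.11 ± 0.18, adjusted p = 0.0118), and HAP1 had a change of -0.007 ± 0.13 (adjusted p = 0.971). HMG2 and these regulators were also named after their values were seen. In all, 4 of 11 genes in this list were higher and 4 lower, against 19.2% and 34.6% of all tested genes.

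The enzymes that make hypusine on eIF5A moved in opposite directions. DYS1, the deoxyhypusine synthase gene, read 1.75, 1.46 and 1.76 in the deletion strain, against 0.37, 0.38 and 0.39 in wild type, and rose (1.23 ± 0.15, adjusted p = 0.00616). LIA1, the deoxyhypusine hydroxylase gene, read -1.86, -1.19 and -1.85 in the deletion strain, against -0.60, -0.62 and -0.54 in wild type, and fell (-0.93 ± 0.26, adjusted p = 0.0456). LIA1 was not called with median centring (-0.63, adjusted p = 0.141), with quantile normalization (-0.72, adjusted p = 0.0868) or once wild-type array 2 was left out (adjusted p = 0.113). Both genes were named after their values were seen.

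The eEF1A genes TEF1 and TEF2, which encode the same protein, were lower on every deletion array and did not pass. TEF1 read 4.41, 4.79 and 4.38 in the deletion strain, against 4.99, 4.98 and 4.95 in wild type (-0.39 ± 0.19, adjusted p = 0.163). TEF2 read 4.40, 4.57 and 4.36 in the deletion strain, against 4.93, 4.94 and 4.95 in wild type (-0.47 ± 0.15, adjusted p = 0.0594). With quantile normalization both were called lower (-0.78 and -0.86, adjusted p = 0.00257 and 0.00402). Leaving out deletion array 3 also brought TEF2 past the threshold (-0.46, adjusted p = 0.0466), and without deletion array 2 the changes of TEF1 and TEF2 were -0.58 and -0.56.

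Of the eEF1B genes, EFB1, the catalytic alpha subunit, fell slightly (-0.43 ± 0.12, adjusted p = 0.0464). Its levels were 2.56, 2.69 and 2.57 in the deletion strain, against 3.04, 3.06 and 3.05 in wild type. The EFB1 call did not hold with median centring (-0.13, adjusted p = 0.514), nor once wild-type array 2 was left out (-0.42, adjusted p = 0.552). CAM1 and TEF4 both encode the gamma subunit. CAM1 read 2.22, 2.63 and 2.19 in the deletion strain, against 2.08, 2.02 and 2.00 in wild type, higher on every deletion array without passing (0.39 ± 0.19, adjusted p = 0.149). TEF4 read 0.81, 1.41 and 0.79 in the deletion strain, against 1.23, 1.24 and 1.20 in wild type, so that deletion array 2 lay above wild type and the other deletion arrays below it. Without deletion array 2 the changes of CAM1 and TEF4 were 0.18 and -0.43.

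Both genes of the translocase eEF2, which encode the same protein, fell. EFT2 read 1.67, 1.93 and 1.64 in the deletion strain, against 2.84, 2.83 and 2.86 in wild type, a fall of 2.06-fold (-1.04 ± 0.15, adjusted p = 0.00865). EFT1 read 1.47, 2.03 and 1.47 in the deletion strain, against 2.66, 2.62 and 2.63 in wild type (-0.88 ± 0.23, adjusted p = 0.037). Neither was called once wild-type array 2 was left out (adjusted p = 0.0757 for EFT2 and 0.136 for EFT1), and EFT1 was not called with median centring (-0.59, adjusted p = 0.135).

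HEF3, a second gene for eEF3, was the only one of the 39 called higher. It read -0.44, -0.50 and -0.46 in the deletion strain, against -1.42, -1.36 and -1.37 in wild type, a 1.87-fold rise (0.91 ± 0.11, adjusted p = 0.00616). YEF3, the main eEF3 gene, read 1.56, 1.54 and 1.58 in the deletion strain, against 1.86, 1.89 and 1.88 in wild type (-0.33 ± 0.10, adjusted p = 0.0636). YEF3 was called lower with quantile normalization (-0.52, adjusted p = 0.0164), and with median centring it had -0.034 (adjusted p = 0.84). The arrays of each strain lay close together on both genes, and the strains did not overlap. The HEF3 call was lost without wild-type array 2 (0.92, adjusted p = 0.118). HEF3 is known as a gene raised in low zinc. Of 6 other zinc-regulated genes 2 were higher and 1 lower, where 19.2% and 34.6% of all tested genes were. ZAP1, the zinc-responsive activator gene, rose by 2.23 ± 0.13, ZPS1 rose by 2.15 ± 0.25, and ZRT1, the high-affinity zinc transporter gene, fell (-2.44 ± 0.11), with adjusted p = 0.00253, 0.00616 and 0.00233.

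The release factor genes had nearly equal fitted changes and very different errors. SUP35, which encodes eRF3 and is also known as the protein of a yeast prion, read -0.72, -0.67 and -0.66 in the deletion strain, against 0.43, 0.41 and 0.43 in wild type. It fell 2.15-fold (-1.10 ± 0.10, adjusted p = 0.00411). SUP45, which encodes eRF1, read -0.70, -1.93 and -0.72 in the deletion strain, against -0.23, -0.21 and -0.22 in wild type. All its deletion arrays lay below wild type, but array 2 was far lower than arrays 1 and 3. The change of -1.11 ± 0.45 did not pass (adjusted p = 0.107) and was -0.50 without deletion array 2.

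Where a factor has a pair of paralogous genes, the change of the log2 ratio between them was compared over samples. These comparisons concern changes and not levels, because different probes cannot be set against each other. No probe sequences were used here, and how far a probe separates near-identical copies such as TEF1 and TEF2, EFT1 and EFT2 or TIF1 and TIF2 was not tested. For eIF5A the fitted log2 change of HYP2 minus that of ANB1 was 3.32, with 3.49 from deletion arrays 1 and 3 and 3.15 from deletion array 2. For eEF3 the change of YEF3 minus that of HEF3 was -1.23, with -1.24 and -1.22 in the same 2 samples. The ratio also shifted without overlap between the strains for TIF4631 over TIF4632 (0.86), TEF4 over CAM1 (-0.51) and TIF1 over TIF2 (-0.50). For TEF1 over TEF2 (0.08) and EFT1 over EFT2 (0.16) the arrays of the strains overlapped. None of the 7 pairs could reach significance, since the two-sided exact permutation test cannot go below p = 0.333 with 2 samples against 2, or below 0.1 with 3 arrays against 3. The 5 pairs without overlap gave these smallest values. EFT1 and EFT2, whose arrays overlapped, also gave p = 0.333 over samples (exact permutation test). Over 6 arrays TEF1 and TEF2 gave p = 0.8 and EFT1 and EFT2 p = 0.2 (exact permutation test). Adjusted over the 7 pairs by Benjamini-Hochberg, the 5 smallest values over 6 arrays became 0.14.

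**Figure D3:**
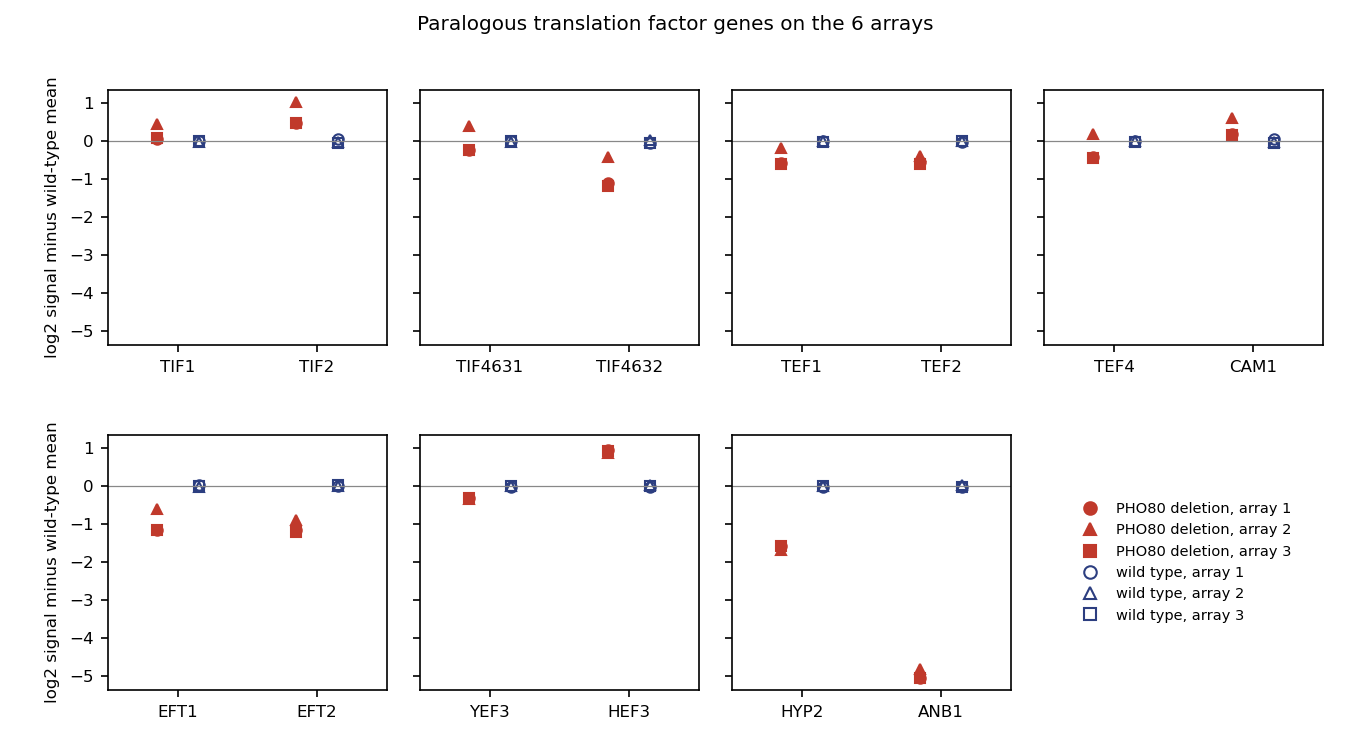
Log2 signal minus the gene's wild-type mean for the 7 pairs of paralogous factor genes, with PHO80 deletion arrays in filled red and wild-type arrays in open blue. ANB1 lies near -5 and HYP2 near -1.6 on the deletion arrays, YEF3 and HEF3 lie on opposite sides of wild type, and TEF1 and TEF2 lie at like distances below it.

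The 2 deletion samples gave unlike values for part of the list. Relative to the wild-type mean, the median change of the 39 genes was -0.50 on deletion arrays 1 and 3 and -0.68 on deletion array 2, against -0.24 and -0.32 for all tested genes. For initiation genes it was -0.40 on arrays 1 and 3 and -0.74 on array 2, and for elongation genes it was -0.56 and -0.36. SUI1, SUI3, GCD1, TIF3 and SUP45 were at least 1 lower (log2) on deletion array 2 than on arrays 1 and 3, 5 of 39 genes against 7.45% of all tested genes, and none was that much higher. All 5 missed the threshold, with standard errors of 0.42 to 0.53, whereas the median standard error of the 39 genes was 0.17. On 6 genes, GCD11, GCD7, GCD2, TIF35, TIF4631 and TEF4, the 2 deletion samples lay on opposite sides of wild type, a share of 15.4% among the factor genes and of 15.4% among all tested genes. The SD between the 3 deletion arrays had a median of 0.18 over the 39 genes, against 0.020 between the wild-type arrays. The part of array 2 in these results was not tested.

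**Figure D4:**
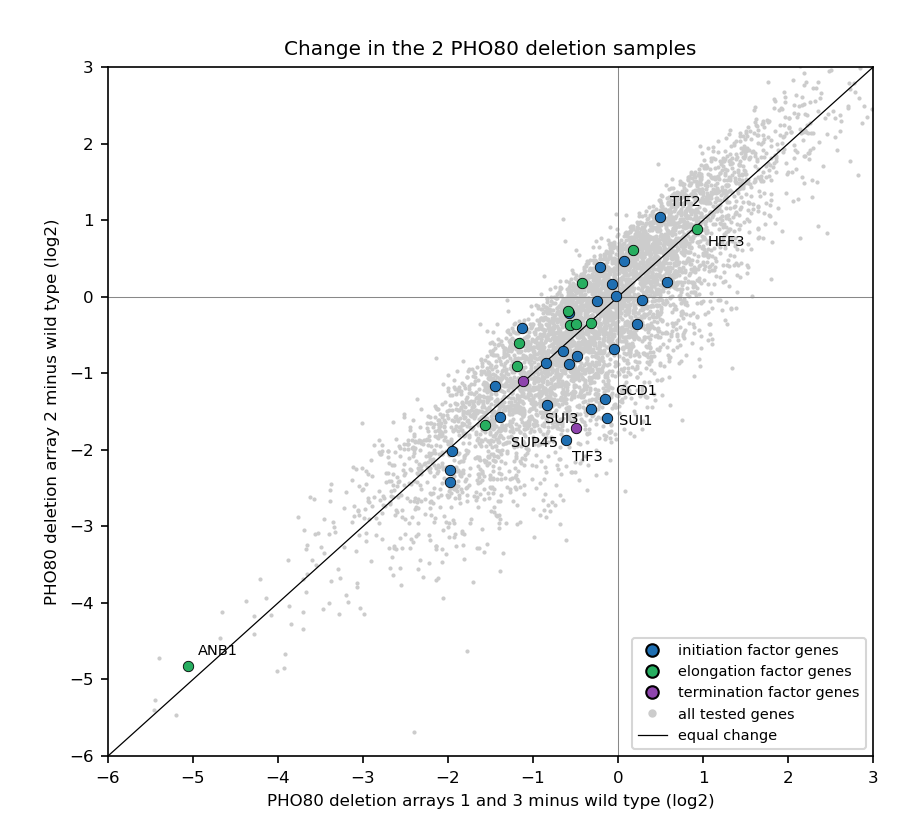
Change from the wild-type mean (log2) in the sample of PHO80 deletion arrays 1 and 3 (x axis) against that on deletion array 2 (y axis), for the translation factor genes by phase and for all tested genes in grey, of which 59 lie outside the axes. SUI1, SUI3, GCD1, TIF3 and SUP45 lie well below the line of equal change, and ANB1 lies near that line at about -5 on both axes.

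Genes that assist or regulate the factors formed a list of 35, of which 13 (37.1%) were lower and 2 (5.71%) higher, against 34.6% and 19.2% of all tested genes. Their median log2 fold change was -0.43, against -0.28 for all tested genes. STM1, whose product clamps idle ribosomes, fell (-2.39 ± 0.10), as did RRT2 (also called DPH7), which acts in the diphthamide modification of eEF2 (-1.74 ± 0.13), and TMA20, whose product takes part in ribosome recycling (-1.49 ± 0.12). Their adjusted p-values were 0.00233, 0.00318 and 0.00359. The genes of the pathway that phosphorylates eIF2 under amino acid shortage were also lower, and were named after their values were seen. GCN2, the eIF2 kinase gene, and its activators GCN1 and GCN20 had changes of -0.89 ± 0.20, -1.66 ± 0.28 and -1.08 ± 0.23 (adjusted p = 0.0265, 0.0138 and 0.0224). GCN4, the activator translated through this pathway, had a change of -0.50 ± 0.13 (adjusted p = 0.0346). Without wild-type array 2 the adjusted p-values of GCN2, GCN20 and GCN4 were 0.197, 0.0718 and 0.471, and with quantile normalization GCN2 had -0.36 (adjusted p = 0.0933). GCN4 was not called with median centring (-0.21, adjusted p = 0.259). The counts of lower and of higher genes in the list fell without wild-type array 2 and rose without deletion array 2, as did those of all tested genes.

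Translation factors of the mitochondrion gave 3 lower (33.3%) and 0 higher of 9, against 34.6% and 19.2% of all tested genes, with a median of -0.20, against -0.28. By limma at an unadjusted p under 0.05 the counts were also 3 and 0. MEF2, a mitochondrial gene of the elongation factor G family, fell (-2.45 ± 0.21, adjusted p = 0.00362). FMT1, which formylates the initiator tRNA, had a change of -1.40 ± 0.20 (adjusted p = 0.00876) and was above background on 2 of 3 deletion arrays, and GUF1, an elongation GTPase gene, one of -0.93 ± 0.25 (adjusted p = 0.0426). FMT1 and GUF1 were not called without wild-type array 2 (adjusted p = 0.086 and 0.179) or with quantile normalization (-0.69 and -0.20, adjusted p = 0.0975 and 0.347).

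**Figure D5:**
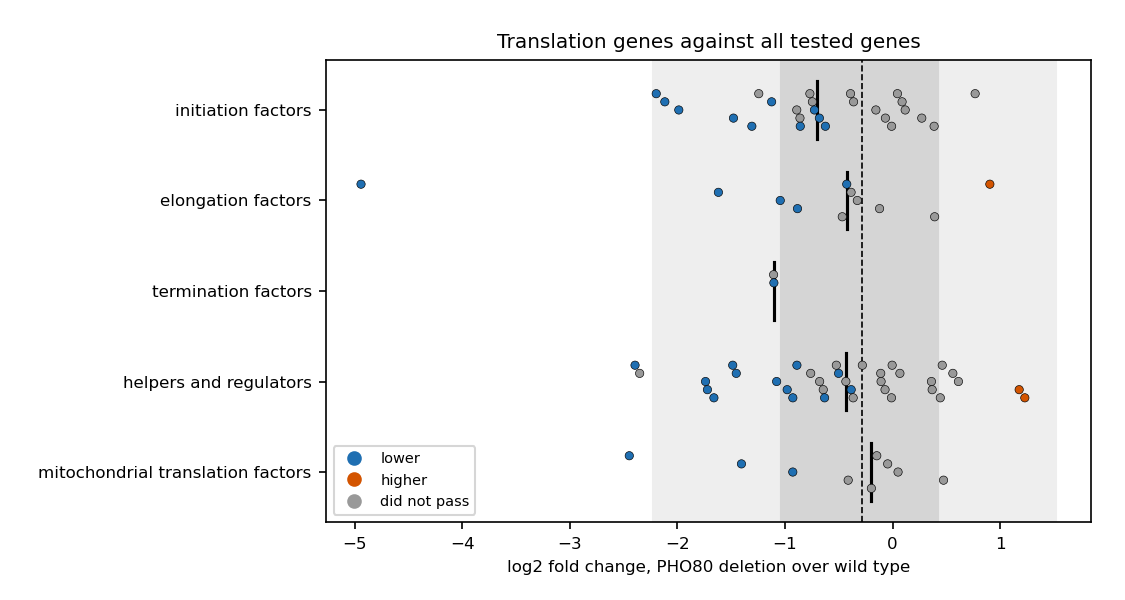
Log2 fold change (PHO80 deletion over wild type) of each gene in the 3 groups of cytosolic translation factors and in 2 related lists, with blue for lower, orange for higher and grey for genes that did not pass. Black bars are list medians, the dashed line is the median of all tested genes, and the dark and light bands hold the middle of all tested genes (percentiles 25 to 75 and 5 to 95). Most genes of every list lie within the light band, and ANB1 lies far outside it.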

How the data were processed

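In all, 6 arrays were analysed, 3 of the PHO80 deletion strain and 3 of wild type. The deposited intensities are processed signals of Agilent Feature Extraction 10.1.1.1 (per the submitters' processing notes), which subtracts background before deposit. The deposited series value table holds processed values with no stated scaling. On each array the ratio of its values to the scanner signals had a median over probes of 0.996 to 0.999 (r = 0.997 to 0.999 on the log2 scale). The genome build is not given in the labels.

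Control and flagged spots (1.12 to 1.88% of spots) were left out, log2 signals were set against each array's 75th percentile, and the 7 spots of a probe were averaged. A gene was tested if it was well above background (in over 0.5 of its spots) on at least 3 of 6 arrays, which kept 5863 and left out 393. Each gene had 1 probe, and 5756 of 6256 locus tags matched a RefSeq R64 symbol. Of all probes, 92.0 to 94.6% were well above background on an array. Arrays 1 and 3 of each strain were averaged. limma 3.58.1 (R 4.3.3) fitted strain, with an intensity trend, to the 2 samples of each strain (2 residual and 1.93 prior degrees of freedom), with Benjamini-Hochberg adjustment over all tested genes at 0.05. The number of arrays limits the precision. The fit was tested on simulated data.

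Same-numbered arrays did not deviate together (correlations of -0.206, -0.170 and -0.0103), and the main fit did not pair the samples by number. The wild-type arrays lay near spot noise, so these correlations could miss a pairing. The alternatives were other scalings, background corrections and filters, no trend, strain-specific spread, the deposited value table, unmerged arrays, wild type as 1 sample, a replicate block and leaving out each array.

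The members, the lists and the rule for named genes were chosen with earlier results of these data known. Values on every array were planned for the paralog pairs and for the smallest and largest change in each complex, and up to 3 called genes by p were to be named in every other list. Names outside this rule are marked as chosen after their values were seen, apart from TAH11, which was named for its position. A search for genes with a similar profile was dropped because the arrays fall into 2 strains. No sequences are printed.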

Additional observations from a re-analysis of the deposited data

How the results depend on the processing

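ANB1, RPG1, TIF11, NIP1, HYP2, PRT1, CAF20, CDC33 and SUP35 were called lower under all 18 alternatives tried, and of the 17 called genes 16 kept their direction under all of them, TIF5 being the exception. Against 16 lower and 1 higher, the 39 genes gave 11 and 3 with median centring, 18 and 3 after quantile normalization, 16 and 2 after normexp background correction (chosen after seeing the data), 16 and 2 in the deposited value table and 20 and 2 with a spread for each strain. Taking 6 separate arrays gave 22 and 3, wild type as 1 sample gave 10 and 0 (12 and 1 at an unadjusted p under 0.05, limma), and a fold of at least 2 left 10 and 0. The replicate block gave 22 and 3 over 6 arrays and 20 and 2 over merged samples. Whether the array numbers pair the samples could not be told. Leaving out 1 array gave 10 to 30 lower and 0 to 7 higher, and a relative median of -0.41 to -0.25, against -0.40. This median was -0.62 with quantile normalization and -0.30 with 6 arrays, with or without the block.

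The genes whose change reversed sign had not passed, apart from TIF5. GCD7 had the largest reversed value (0.23 with median centring, 0.82 with quantile normalization, 0.043 over 6 arrays with or without the block, and -0.067 to 0.22 when 1 array was left out). GCD11 had 0.29 with median centring, 0.10 with quantile normalization, 0.017 with normexp and 0.010 in the value table, and GCN3 had 0.14 with median centring and 0.20 with quantile normalization. TIF35 had -0.037 with quantile normalization, -0.00043 over 6 arrays with or without the block and -0.071 to 0.061 when 1 array was left out. TIF4631 had -0.017 over 6 arrays with or without the block and -0.22 to 0.094 when 1 array was left out. TIF1 (-0.042) and TIF5 (0.28) turned with quantile normalization, and TEF4 with median centring (0.17). The causes were not tested.

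Over all genes, 1123 higher and 2029 lower became 523 and 1122 without wild-type array 2, 519 and 1130 with wild type as 1 sample, 1540 and 1514 with median centring, 1615 and 1445 with quantile normalization, and 2200 and 3289 without deletion array 2. The spread rests on 2 samples per strain.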
